A study of Homo sapiens with 6 samples.

Results

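Interferon response genes were described by 51 genes, chosen by symbol: the receptors and receptor kinases, the factors that act below them, and genes known to be induced by interferon. All 51 stood in the deposited table of 25268 gene symbols. RNA was measured in 6 libraries of A673, a cell line from an Ewing sarcoma with the fusion gene EWSR1-FLI1, all collected 72 h after transfection. Cells had received esiRNA (short interfering RNA cut enzymatically from a long double strand) against FLI1 (esiFLI1, 2 libraries), against the deubiquitinase USP9X (esiUSP9X, 2 libraries) or against GFP as the control (esiGFP, 2 libraries). All 3 groups had therefore received double-stranded RNA, and no interferon treatment is named in the labels. A673 is a single line, and no group of untransfected cells was analysed here. The series title names the stabilisation of EWS-FLI1 by USP9X as its subject. Levels are in FPKM, fragments scaled by transcript length and by the mapped fragments, and differences are on the log2(FPKM + 1) scale, which understates the change of low genes. Of the 51 genes, 39 passed a filter (1 FPKM or more in 2 or more of the 6 libraries) and were tested with 12169 genes in all.

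Interferons are secreted proteins that bind receptor pairs on the cell surface and activate the kinases JAK1, JAK2 and TYK2. These kinases phosphorylate STAT proteins, which enter the nucleus, where type I signalling assembles STAT2 with IRF9 on interferon-stimulated response elements and interferon gamma acts through gamma-activated sites. The induced proteins sense viral RNA, block entry, degrade RNA or tag proteins, and many are also present at a low level in cells that have met no interferon. Cytosolic sensors such as IFIH1 and DDX58 recognise double-stranded RNA and can start the production of interferon.

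FLI1 RNA, which includes the fusion's 3' part, was 12.7 and 14.1 FPKM in esiFLI1, 25.0 and 31.9 FPKM in esiUSP9X, and 24.1 and 36.4 FPKM in esiGFP. USP9X RNA was 5.31 and 7.10 FPKM in esiUSP9X, 26.2 and 37.7 FPKM in esiFLI1, and 20.6 and 26.5 FPKM in esiGFP. Libraries summed to between 781732 and 907926 FPKM, of which the symbol MIR6723 held 33.2% to 50.9%, and their read depth is unknown. Of 6 Ewing sarcoma markers CD99 was listed at 0 in all 6 libraries, and the summed level was 86.8 and 77.6 FPKM in esiFLI1, 288 and 238 FPKM in esiUSP9X, and 229 and 219 FPKM in esiGFP. Abundant genes such as EEF1A1 were also listed at 0 in some libraries, so a listed 0 is not read as absence. Of 6 fibroblast markers 4 passed the filter, and their sum was 1504 and 653 FPKM in esiFLI1, 323 and 168 FPKM in esiUSP9X, and 362 and 144 FPKM in esiGFP. COL1A2 alone made up 1144 and 512 FPKM of it in esiFLI1, 258 and 132 FPKM in esiUSP9X, and 275 and 102 FPKM in esiGFP. Another of the list, THY1, was not higher in esiFLI1, with 40.9 and 18.3 FPKM there, 41.1 and 23.9 FPKM in esiUSP9X, and 54.9 and 30.1 FPKM in esiGFP. Of 10 immune cell markers only CD68 passed it, with a sum of 8.44 and 4.82 FPKM in esiFLI1, 2.35 and 2.04 FPKM in esiUSP9X, and 4.09 and 2.94 FPKM in esiGFP. Within that list CD3E was listed at 0 in all 6 libraries, and PTPRC did not exceed 0.0201 FPKM. Of 6 endothelial markers 1 passed, with sums of 3.65 and 2.13 FPKM in esiFLI1, 0.425 and 0.270 FPKM in esiUSP9X, and 1.20 and 0.286 FPKM in esiGFP. The 6 epithelial markers summed to 0.352 and 0.344 FPKM in esiFLI1, 0.345 and 0.781 FPKM in esiUSP9X, and 0.686 and 0.363 FPKM in esiGFP, and overlapped. The Ewing sarcoma sum was lower and the fibroblast, immune and endothelial sums were higher in both esiFLI1 libraries than in esiGFP, and their part in the interferon gene differences was not tested. In bulk RNA, fewer cells of a type and less RNA per cell cannot be told apart.

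Most interferon response genes were higher in esiFLI1 than in esiGFP. GBP2, a guanylate-binding GTPase, was called higher with and without the replicate number as a block. A further 23 members were called higher only in the blocked fit, which gives the same differences with a smaller spread. IRF1 and IRF9 among the factors, BST2, IFITM1 and IFITM2 among the entry and release blockers, and UBE2L6 and PARP14 among the protein-modifying enzymes were the largest of these. IRF3 was the single member called lower in the blocked fit, and no receptor or receptor kinase was called in either fit. The median difference over the 39 tested members was 0.60, against -0.03 over all 12169 genes, and 32 of the 39 differences were positive.

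In counts, limma without a block called 1 member higher and 0 lower at an adjusted p under 0.05, where 2.58% of all genes were called higher and 0.23% lower. At an unadjusted p under 0.05 it gave 17 members higher and 0 lower, against 1263 and 660 of all 12169 genes. Blocked, limma called 24 members higher and 1 lower, where 20.6% of all genes were called higher and 21.6% lower. Without the block, the adjusted p of the other 23 higher members ran from 0.0587 to 0.823, and that of IRF3 was 0.439. The libraries of esiFLI1 lay wholly above those of esiGFP for 22 of the 39 members and wholly below them for 1, against 19.8% and 17.3% of all genes. Without any 1 library the unblocked fit called 0 members higher, and the blocked fit called between 18 and 24. RSAD2 passed the filter only through its esiFLI1 libraries, and without it the blocked fit called 23 of 38 higher. It was also among the 22 wholly above esiGFP.

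**Figure D1:**
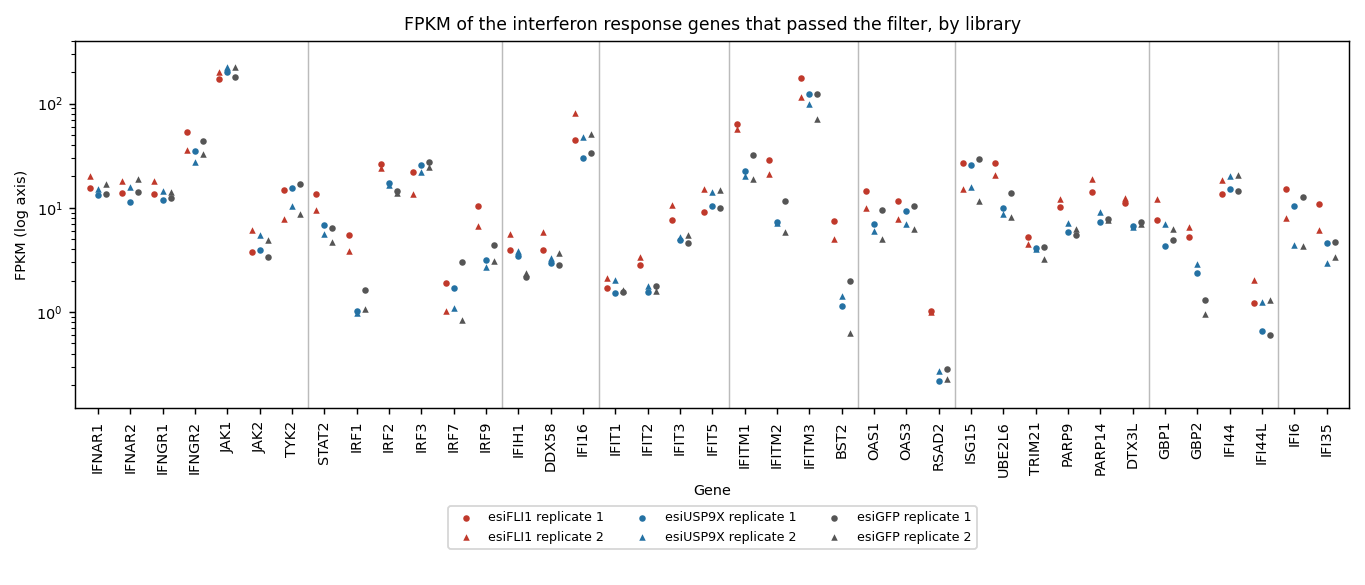
FPKM of the 39 tested members in each of the 6 libraries on a log axis, with a point per library coloured by group and members ordered by role. The esiFLI1 points of IFITM1, IFITM2, BST2, IRF1 and GBP2 stand above those of esiUSP9X and esiGFP, while the receptor and kinase points of esiFLI1 and esiGFP overlap.

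The interferon receptors were present in all libraries, and none was called between esiFLI1 and esiGFP. IFNAR1, a subunit of the type I receptor, had 15.6 and 20.0 FPKM in esiFLI1, 13.4 and 15.3 FPKM in esiUSP9X, and 13.6 and 16.9 FPKM in esiGFP. Its partner IFNAR2 had 13.8 and 18.0 FPKM in esiFLI1, 11.3 and 15.8 FPKM in esiUSP9X, and 14.3 and 18.7 FPKM in esiGFP. Both type I subunits overlapped between esiFLI1 and esiGFP, as did the other 5 genes of this group. IFNGR1, which binds interferon gamma, had 13.7 and 18.0 FPKM in esiFLI1, 11.8 and 14.5 FPKM in esiUSP9X, and 12.3 and 14.1 FPKM in esiGFP. IFNGR2, the subunit that completes that receptor, had 52.9 and 36.0 FPKM in esiFLI1, 35.2 and 27.6 FPKM in esiUSP9X, and 44.0 and 32.8 FPKM in esiGFP. JAK1 was the highest kinase per length, with 171 and 199 FPKM in esiFLI1, 200.2 and 222 FPKM in esiUSP9X, and 178 and 225 FPKM in esiGFP. JAK2, which pairs with the gamma receptor, lay between 3.35 and 6.08 FPKM over all libraries, and TYK2, which pairs with IFNAR1, between 7.78 and 17.0 FPKM. The blocked fit called 0 of 7 receptors and kinases higher and 0 lower, against 20.6% and 21.6% of all genes. At an unadjusted blocked limma p under 0.05, 1 was higher, IFNGR1, and 0 lower, against 2946 and 3212 of all 12169 genes. The median difference of the 7 between esiFLI1 and esiGFP was 0.20.

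The factors below the receptors split. STAT2, which forms a complex with IRF9, had 13.6 and 9.52 FPKM in esiFLI1, 6.83 and 5.55 FPKM in esiUSP9X, and 6.33 and 4.71 FPKM in esiGFP. IRF9, the DNA-binding part of that complex, had 10.3 and 6.62 FPKM in esiFLI1, 3.16 and 2.69 FPKM in esiUSP9X, and 4.44 and 3.11 FPKM in esiGFP. Both esiFLI1 libraries exceeded all 4 others for each gene, and the blocked difference from esiGFP was 0.94 (SE 0.11, limma adjusted p = 0.00049) for STAT2 and 0.98 (SE 0.13, limma adjusted p = 0.000891) for IRF9. IRF1, an activator induced strongly by interferon gamma, had 5.46 and 3.86 FPKM in esiFLI1, 1.02 and 0.985 FPKM in esiUSP9X, and 1.62 and 1.06 FPKM in esiGFP. Its esiFLI1 libraries stood well above the others, with a difference of 1.27 (SE 0.14, blocked limma adjusted p = 0.000377). Unblocked, the same difference had an adjusted p of 0.0587. IRF2, a factor that binds the same elements and often opposes IRF1, had 26.3 and 24.2 FPKM in esiFLI1, 17.1 and 16.4 FPKM in esiUSP9X, and 14.6 and 14.0 FPKM in esiGFP. The replicates of IRF2 lay close together, and the blocked difference was 0.78 (SE 0.09, limma adjusted p = 0.000663).

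IRF3, which starts interferon gene transcription after a sensor is engaged, went the other way. It had 22.2 and 13.4 FPKM in esiFLI1, 25.8 and 22.0 FPKM in esiUSP9X, and 27.7 and 24.6 FPKM in esiGFP. The esiFLI1 libraries of IRF3 were both below those of esiGFP, and the blocked difference was -0.57 (SE 0.14, limma adjusted p = 0.0139). That call was lost without esiFLI1 replicate 2 or esiGFP replicate 2, with an adjusted p of up to 0.093. IRF7, which amplifies type I interferon production, had 1.88 and 1.03 FPKM in esiFLI1, 1.72 and 1.09 FPKM in esiUSP9X, and 3.01 and 0.843 FPKM in esiGFP, and the groups overlapped.

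All 3 tested nucleic acid sensors were called higher in the blocked fit, against 20.6% of all genes. The unblocked fit called 0 of them, against 2.58% of all genes. IFI16, which binds DNA, was the most abundant per length, with 45.1 and 81.4 FPKM in esiFLI1, 30.3 and 48.0 FPKM in esiUSP9X, and 33.2 and 51.1 FPKM in esiGFP. Its groups overlapped, with replicate 2 the higher in each, and the blocked difference was 0.55 (SE 0.10, limma adjusted p = 0.00427). IFIH1 (MDA5), a sensor of long double-stranded RNA, had 3.93 and 5.60 FPKM in esiFLI1, 3.45 and 3.89 FPKM in esiUSP9X, and 2.17 and 2.35 FPKM in esiGFP. Here both knockdowns lay wholly above esiGFP, and the blocked esiFLI1 difference was 0.81 (SE 0.13, limma adjusted p = 0.002). DDX58 (RIG-I), a sensor of RNA ends, had 3.96 and 5.84 FPKM in esiFLI1, 2.93 and 3.30 FPKM in esiUSP9X, and 2.83 and 3.69 FPKM in esiGFP. Its blocked difference of 0.46 (SE 0.12, limma adjusted p = 0.0187) was lost in at least 1 fit that left out a library.

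The IFIT proteins, which bind foreign RNA and hinder its translation, did not all move. IFIT3 had 7.58 and 10.6 FPKM in esiFLI1, 4.92 and 5.20 FPKM in esiUSP9X, and 4.58 and 5.49 FPKM in esiGFP, a blocked difference of 0.73 (SE 0.12, limma adjusted p = 0.00264). IFIT2 had 2.85 and 3.40 FPKM in esiFLI1, 1.57 and 1.78 FPKM in esiUSP9X, and 1.78 and 1.59 FPKM in esiGFP. The esiFLI1 libraries of both genes exceeded all others, although the blocked call for IFIT2 (0.61, SE 0.13, limma adjusted p = 0.00645) was lost in at least 1 fit without a library. IFIT1, the family member that binds capped foreign RNA, had 1.69 and 2.10 FPKM in esiFLI1, 1.53 and 2.03 FPKM in esiUSP9X, and 1.56 and 1.61 FPKM in esiGFP. IFIT5 had 9.12 and 15.3 FPKM in esiFLI1, 10.4 and 14.1 FPKM in esiUSP9X, and 10.0 and 14.7 FPKM in esiGFP. The esiFLI1 libraries of IFIT1 lay just above those of esiGFP, and those of IFIT5 overlapped. Neither was called, with blocked limma adjusted p-values of 0.314 for IFIT1 and 0.806 for IFIT5.

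The membrane proteins that block virus entry or release had the largest median difference of the role groups, 1.35, with 4 of 4 called higher in the blocked fit, against 20.6% of all genes, and 0 of 4 in the unblocked fit. BST2 (tetherin), which holds budding virus at the cell surface, had 7.53 and 4.98 FPKM in esiFLI1, 1.14 and 1.44 FPKM in esiUSP9X, and 2.00 and 0.632 FPKM in esiGFP. IFITM1 had 63.6 and 56.5 FPKM in esiFLI1, 22.7 and 20.4 FPKM in esiUSP9X, and 32.3 and 18.8 FPKM in esiGFP. IFITM2 had 28.4 and 21.1 FPKM in esiFLI1, 7.26 and 7.13 FPKM in esiUSP9X, and 11.7 and 5.82 FPKM in esiGFP. For all 3 genes the esiFLI1 libraries stood above the other 4, and blocked differences from esiGFP were 1.69 for BST2 (SE 0.22, limma adjusted p = 0.000978), 1.25 for IFITM1 and 1.46 for IFITM2. IFITM3 was more abundant and overlapped, with 176 and 115 FPKM in esiFLI1, 123 and 99.8 FPKM in esiUSP9X, and 122 and 71.5 FPKM in esiGFP, a blocked difference of 0.60 (SE 0.12, limma adjusted p = 0.0069) that was lost in at least 1 fit without a library. The IFITM genes are close copies of each other, and how shared reads were divided between them is not given in the sources used here.

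Among antiviral enzymes, OAS1, which makes the 2-5A signal for RNA decay, had 14.5 and 9.89 FPKM in esiFLI1, 6.95 and 5.93 FPKM in esiUSP9X, and 9.48 and 4.99 FPKM in esiGFP. Its esiFLI1 libraries lay above the others, but the blocked call (0.71, SE 0.15, limma adjusted p = 0.00695) was lost in at least 1 fit without a library. OAS3, a larger enzyme of the same family, overlapped and was not called, with 11.7 and 7.87 FPKM in esiFLI1, 9.39 and 6.94 FPKM in esiUSP9X, and 10.3 and 6.26 FPKM in esiGFP. RSAD2 (viperin), which makes a chain-terminating nucleotide, had 1.02 and 1.0 FPKM in esiFLI1, 0.219 and 0.272 FPKM in esiUSP9X, and 0.282 and 0.230 FPKM in esiGFP. It was low everywhere, and because it passed the filter only through esiFLI1, where it was highest, its difference is given as levels alone.

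In ISG15 conjugation, the blocked fit called the carrier enzyme higher but not the modifier, and the unblocked fit called neither. UBE2L6, the enzyme that carries ISG15 to its targets, had 26.9 and 20.6 FPKM in esiFLI1, 9.90 and 8.68 FPKM in esiUSP9X, and 13.8 and 8.11 FPKM in esiGFP. ISG15 itself, a ubiquitin-like modifier, had 26.7 and 15.3 FPKM in esiFLI1, 26.0 and 16.0 FPKM in esiUSP9X, and 29.5 and 11.6 FPKM in esiGFP. UBE2L6 separated the groups, with a blocked difference of 1.08 (SE 0.13, limma adjusted p = 0.000748), whereas ISG15 overlapped and was not called (blocked limma adjusted p = 0.57, 95% interval -0.23 to 0.46). PARP14, a mono-ADP-ribosyltransferase, had 14.3 and 18.7 FPKM in esiFLI1, 7.27 and 9.03 FPKM in esiUSP9X, and 7.84 and 7.59 FPKM in esiGFP. PARP9 had 10.1 and 12.2 FPKM in esiFLI1, 5.90 and 7.21 FPKM in esiUSP9X, and 5.48 and 6.24 FPKM in esiGFP. DTX3L, the ubiquitin ligase that pairs with PARP9, had 11.1 and 12.3 FPKM in esiFLI1, 6.63 and 6.52 FPKM in esiUSP9X, and 7.24 and 7.05 FPKM in esiGFP. All 3 separated esiFLI1 from the other groups, with blocked differences of 0.99 for PARP14, 0.82 for PARP9 and 0.64 for DTX3L. PARP9 and DTX3L lie head to head in the genome, and strand use in the authors' counting is not given in the sources used here. TRIM21, a ligase that binds antibody in the cytosol, had 5.20 and 4.49 FPKM in esiFLI1, 4.08 and 3.99 FPKM in esiUSP9X, and 4.25 and 3.21 FPKM in esiGFP. Its libraries did not overlap, but it was not called (blocked limma adjusted p = 0.0653).

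GBP2, a GTPase that coats intracellular pathogens, had the largest difference of the 39 members. It had 5.27 and 6.57 FPKM in esiFLI1 (5.92 ± 0.918, SD, n = 2), 2.38 and 2.86 FPKM in esiUSP9X (2.62 ± 0.335, SD, n = 2), and 1.30 and 0.949 FPKM in esiGFP (1.13 ± 0.249, SD, n = 2). No group overlapped another. The difference between esiFLI1 and esiGFP was 1.70, with a limma adjusted p of 0.0227 unblocked and 0.000151 blocked (SE 0.15), but the unblocked call was lost without any 1 library, with adjusted p-values of 0.0738 to 0.189. GBP1, from the same family, had 7.69 and 12.1 FPKM in esiFLI1, 4.32 and 6.94 FPKM in esiUSP9X, and 4.94 and 6.31 FPKM in esiGFP, with esiFLI1 above all others, and its blocked difference was 0.70 (SE 0.12, limma adjusted p = 0.00276). IFI44, a protein of less settled function, overlapped in all groups, with 13.5 and 18.7 FPKM in esiFLI1, 15.1 and 20.2 FPKM in esiUSP9X, and 14.5 and 20.7 FPKM in esiGFP. Its relative IFI44L had 1.21 and 2.03 FPKM in esiFLI1, 0.663 and 1.25 FPKM in esiUSP9X, and 0.608 and 1.31 FPKM in esiGFP. The IFI44L groups overlapped, and its blocked difference of 0.42 (SE 0.12, limma adjusted p = 0.0245) was not called in every fit without a library. IFI35, a cytosolic protein with a leucine zipper, had 10.9 and 6.14 FPKM in esiFLI1, 4.60 and 2.93 FPKM in esiUSP9X, and 4.73 and 3.37 FPKM in esiGFP. Its esiFLI1 libraries exceeded the rest, with a blocked difference of 0.88 (SE 0.12, limma adjusted p = 0.00111). IFI6, an endoplasmic reticulum protein that limits flaviviruses, had 15.0 and 7.96 FPKM in esiFLI1, 10.3 and 4.42 FPKM in esiUSP9X, and 12.8 and 4.32 FPKM in esiGFP. Those groups overlapped, and the blocked difference of 0.48 (SE 0.14, limma adjusted p = 0.0254) was lost in at least 1 fit without a library.

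**Figure D2:**
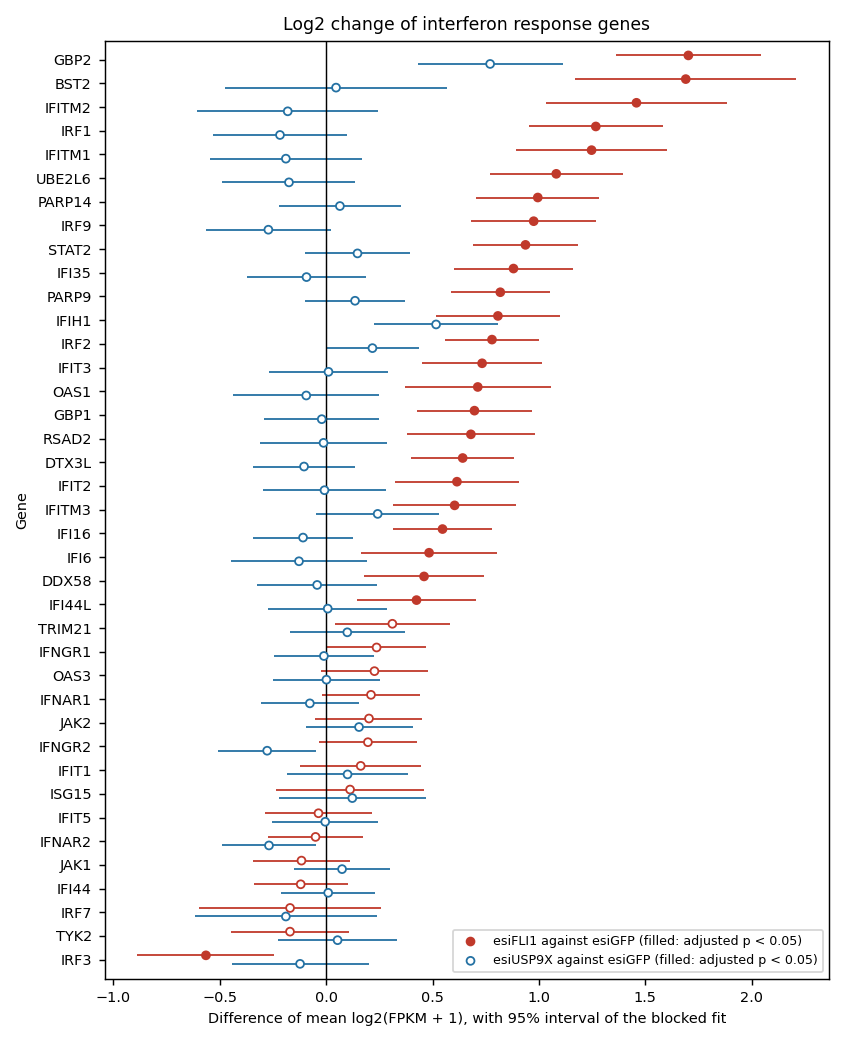
Blocked difference on the log2(FPKM + 1) scale for each of the 39 tested members, with bars for the 95% interval, for esiFLI1 against esiGFP and esiUSP9X against esiGFP. The esiFLI1 points run from -0.57 for IRF3 to 1.70 for GBP2, while 38 of the 39 blocked esiUSP9X intervals lie between -1 and 1.

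The other 12 members did not pass the filter and were not tested. Several are induced strongly by interferon in other cells, and all but SAMD9 in esiFLI1 replicate 2 were under 1 FPKM in every library. SAMD9L, an inhibitor of translation, had 0.656 and 0.905 FPKM in esiFLI1, 0.0441 and 0.0329 FPKM in esiUSP9X, and 0.0977 and 0.0763 FPKM in esiGFP. Its paralog SAMD9 had 0.866 and 2.51 FPKM in esiFLI1, 0.407 and 0.648 FPKM in esiUSP9X, and 0.506 and 0.643 FPKM in esiGFP. Both lay wholly higher in esiFLI1. MX1, a GTPase that blocks influenza virus, had 0.243 and 0.204 FPKM in esiFLI1, 0.134 and 0.134 FPKM in esiUSP9X, and 0.129 and 0.0601 FPKM in esiGFP, and MX2 was listed at 0 in 5 of the 6 libraries. XAF1, which promotes cell death, had 0.178 and 0.322 FPKM in esiFLI1, 0.0128 and 0 FPKM in esiUSP9X, and 0.00776 and 0.0202 FPKM in esiGFP. OAS2, of the OAS family, had 0.0827 and 0.0328 FPKM in esiFLI1, 0 and 0 FPKM in esiUSP9X, and 0.00821 and 0 FPKM in esiGFP. These 3 also separated esiFLI1 from esiGFP, as did DHX58 (LGP2), HERC6 and TRIM22. In all, 8 of the 12 lay wholly above esiGFP in esiFLI1 and 0 wholly below, against 28.7% and 10.1% of the 7284 genes that did not pass the filter and were above 0 in a library. OASL, ISG20 and IFI27 overlapped between esiFLI1 and esiGFP. OASL had 0.297 and 0.272 FPKM in esiFLI1, 0.0582 and 0.0458 FPKM in esiUSP9X, and 0.649 and 0.129 FPKM in esiGFP. In esiUSP9X, 2 of the 12 lay wholly above esiGFP and 5 wholly below, against 12.5% and 10.2% of such genes. Set against esiFLI1, 0 of the 12 lay wholly above in esiUSP9X and 11 wholly below, against 10.2% and 28.3%.

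**Figure D3:**
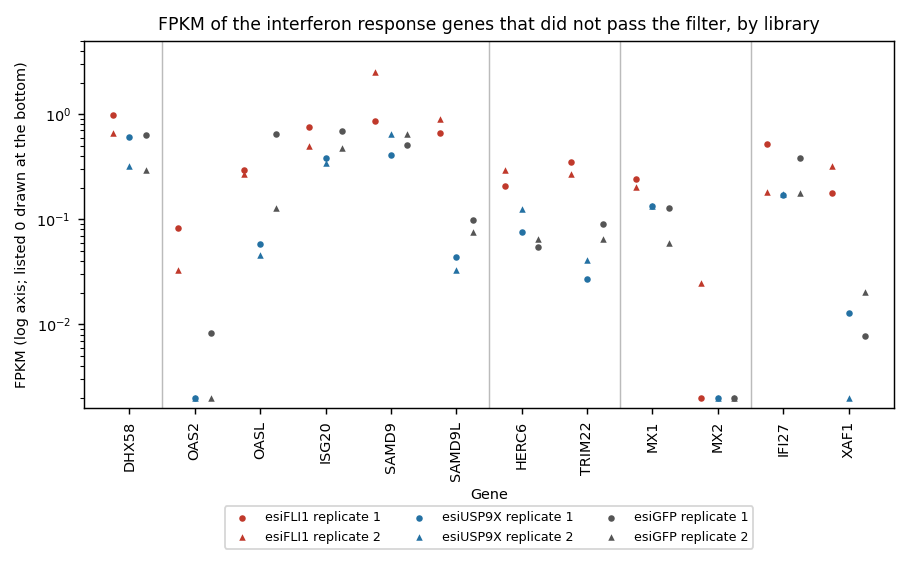
FPKM of the 12 members that did not pass the filter, with a point per library coloured by group. SAMD9L, SAMD9 and XAF1 stand higher in both esiFLI1 libraries than in the esiGFP libraries, and MX2 lies at 0 in 5 of the 6 libraries.

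Between esiUSP9X and esiGFP no member was called. GBP2 and IFIH1 had the largest differences, and both were higher in esiUSP9X. limma called 0 of 39 members higher and 0 lower in either fit, where the unblocked fit called 0.0247% of all genes higher and 0% lower and the blocked fit 0.074% and 0.164%. USP9X, the knockdown's own target, had a difference of -1.77. The blocked fit called USP9X lower (limma adjusted p = 0.000453), but the unblocked fit did not. The unblocked 0 therefore does not show that members were unchanged. At an unadjusted p under 0.05 the unblocked fit gave 1 member higher and 0 lower, against 67 and 47 of all 12169 genes. The blocked fit gave 2 members higher and 2 lower, against 591 and 730 of all genes. The median difference was -0.01 over the members and -0.01 over all genes. GBP2, with the FPKM given above, had the largest difference, 0.77 (95% interval 0.43 to 1.11, blocked limma adjusted p = 0.139), and it was called only in the blocked fit without esiGFP replicate 1. IFIH1 followed with 0.52 (95% interval 0.23 to 0.81, blocked limma adjusted p = 0.225). The esiUSP9X libraries lay wholly above esiGFP for GBP2, IFIH1 and IRF2 and wholly below for IRF1 and DTX3L, that is 3 and 2 of 39 members, against 8.75% and 7.82% of all genes. In the blocked fit 38 of 39 unadjusted 95% intervals lay between -1 and 1, the exception being GBP2, and 4 left out 0, those of GBP2, IFIH1, IFNAR2 and IFNGR2. In the unblocked fit 30 of 39 lay between -1 and 1, and 1, that of GBP2, left out 0.

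The direct test of esiUSP9X against esiFLI1 used the same libraries as the comparisons above. IRF1 was called lower in esiUSP9X in both fits, with a difference of -1.48 (SE 0.14 blocked, limma adjusted p = 0.0392 unblocked and 0.000183 blocked). The unblocked IRF1 call was lost without any 1 library, with adjusted p-values of 0.0694 to 0.301. Unblocked, limma called 1 of 39 members lower and 0 higher, where 2.66% of all genes were called lower and 0.419% higher. Unadjusted, 16 members were lower at p under 0.05 and 0 higher, against 1279 and 652 of all 12169 genes. Blocked, it called 24 lower and 1, IRF3, higher, where 20.9% of all genes were called lower and 20.2% higher. The libraries of esiUSP9X lay wholly below those of esiFLI1 for 23 of the 39 members and wholly above for 1, against 21.1% and 18.4% of all genes. RSAD2, which passed the filter only through its esiFLI1 libraries, was among the 24 called lower and the 23 wholly below, so it adds no support here. The median difference was -0.56, against 0.02 over all genes. The receptor subunits IFNAR1 (-0.29, blocked limma adjusted p = 0.0499) and IFNGR2 (-0.47, adjusted p = 0.00721) were among those lower in esiUSP9X than in esiFLI1, and both calls were lost in at least 1 fit without a library. GBP2 was -0.93 (SE 0.15, blocked limma adjusted p = 0.00211), so its level differed between the knockdowns, while IFIH1 was not called (-0.29, adjusted p = 0.0983). IRF3 was 0.44 higher in esiUSP9X (SE 0.14, blocked limma adjusted p = 0.0361), a call lost in at least 1 fit without a library. So were the blocked calls for DDX58, IFIT2, OAS1, IFI44L and IFI6.

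The promoters of the members were searched for the letters of the elements that interferon-activated factors are known to bind. RefSeq promoters of GRCh38.p14, another build than the files use, were matched by symbol for 38 of the 51 members and searched on both strands from 250 bases before to 50 bases after the gene's start. The letters GAAANNGAAA stood for the response element and TTCNNNGAA for the gamma-activated site. The 150 bases before the start are printed here 5' to 3' for 8 members. The first 5 were called higher in esiFLI1 by the blocked fit, and capitals mark their gamma-activated letters. BST2 and PARP14 also hold response element letters, which are not marked. The last 3 were not called, and capitals mark their response element letters on either strand. Only called members with gamma-activated letters and uncalled members with response element letters are printed, so the 8 do not stand for all members.
IRF1, chr5:132490774-132490923, minus strand: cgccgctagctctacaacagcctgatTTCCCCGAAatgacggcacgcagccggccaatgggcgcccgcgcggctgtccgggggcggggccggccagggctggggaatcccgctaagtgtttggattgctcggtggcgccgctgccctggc
IRF9, chr14:24161115-24161264, plus strand: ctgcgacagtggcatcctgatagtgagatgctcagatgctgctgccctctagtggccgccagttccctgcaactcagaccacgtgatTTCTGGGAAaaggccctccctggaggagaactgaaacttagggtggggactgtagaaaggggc
BST2, chr19:17405631-17405780, minus strand: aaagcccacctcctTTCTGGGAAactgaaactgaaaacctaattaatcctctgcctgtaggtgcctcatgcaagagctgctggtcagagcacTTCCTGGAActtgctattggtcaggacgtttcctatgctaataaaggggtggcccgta
PARP14, chr3:122680689-122680838, plus strand: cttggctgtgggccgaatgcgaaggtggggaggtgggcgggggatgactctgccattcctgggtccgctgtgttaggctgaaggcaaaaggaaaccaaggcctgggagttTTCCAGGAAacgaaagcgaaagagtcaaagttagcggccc
IFI35, chr17:43006634-43006783, plus strand: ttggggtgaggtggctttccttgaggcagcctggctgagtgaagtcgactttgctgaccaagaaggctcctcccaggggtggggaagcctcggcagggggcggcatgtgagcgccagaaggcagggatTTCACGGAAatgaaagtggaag
ISG15, chr1:1013347-1013496, plus strand: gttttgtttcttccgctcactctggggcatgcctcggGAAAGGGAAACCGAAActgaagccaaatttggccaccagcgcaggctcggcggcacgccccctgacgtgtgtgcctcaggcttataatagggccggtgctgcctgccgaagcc
IFIT1, chr10:89392473-89392622, plus strand: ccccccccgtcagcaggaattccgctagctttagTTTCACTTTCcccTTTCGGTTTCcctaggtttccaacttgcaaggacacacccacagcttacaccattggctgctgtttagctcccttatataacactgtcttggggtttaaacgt
OAS3, chr12:112938324-112938473, plus strand: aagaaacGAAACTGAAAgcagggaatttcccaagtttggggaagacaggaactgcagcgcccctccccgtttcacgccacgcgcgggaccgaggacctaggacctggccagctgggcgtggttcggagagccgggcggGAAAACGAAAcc

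Response element letters were in 20 of the 38 promoters (52.6%), against 3.65% of 27305 promoters. They were in 10 of 19 called higher in esiFLI1 by the blocked fit (52.6%) and 6 of 12 tested but not called higher (50%). They were also in 4 of 7 that did not pass the filter (57.1%). The 6 not called higher were IFIT1, IFIT5, OAS3, ISG15, TRIM21 and IFI44. The rest of the 12 were the receptors and kinases IFNAR1, IFNGR1, IFNGR2, JAK1, JAK2 and TYK2, which held neither set of letters. ISG15, IFIT1 and OAS3, printed above, each carry 2 copies, which overlap in ISG15, and none of these genes was called. Gamma-activated letters were in 8 of the 38 promoters (21.1%), against 7.88% of all promoters. They were in 7 of the 19 called higher (36.8%), namely IRF1, IRF9, IFITM1, BST2, OAS1, PARP14 and IFI35, in 0 of the 12 not called higher and in 1 of the 7 that did not pass, IFI27. BST2 held the letters at 2 places, and its first copy overlapped response element letters, as did the copies in IFITM1 and IFI27. The repeat GGAAGGAA, a form bound by ETS factors such as EWS-FLI1, was in 3 of the 38 (7.89%) and in 3.58% of all promoters. These counts describe letters in a window, were made with the calls known and were not tested. Neither set of letters was in 14 of the 38 promoters, among them those of STAT2, UBE2L6 and the receptors matched.

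**Figure D4:**
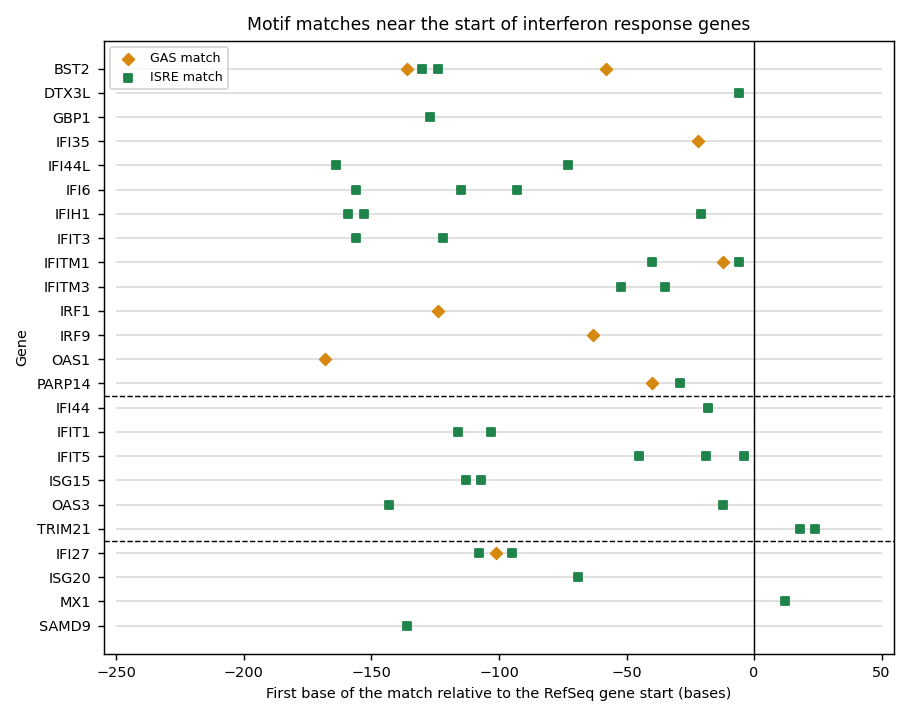
Position of response element (ISRE, squares) and gamma-activated (GAS, diamonds) letters in bases from the gene's start, for each member whose promoter holds either. Dashed lines part members called higher in esiFLI1 by the blocked fit (top), tested members not called higher (middle) and members that did not pass the filter (bottom). Diamonds mark 7 members in the top block, 0 in the middle and 1 in the bottom, while squares occur in all 3 blocks.

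The interferon ligand genes were listed at or near 0. None of 21 interferon ligand genes passed the filter, 19 were listed at 0 in all 6 libraries, and the highest value was 0.0239 FPKM for IFNB1 in esiFLI1 replicate 2. As above, a listed 0 is not read as absence. Among 15 other receptors and regulators of signalling 10 were tested, and between esiFLI1 and esiGFP the blocked fit called 2 higher and 3 lower, near the 20.6% and 21.6% of all genes, and the unblocked fit 0. SOCS1, a feedback inhibitor of JAK kinases, had 11.0 and 2.84 FPKM in esiFLI1, 2.13 and 0.646 FPKM in esiUSP9X, and 2.19 and 0.362 FPKM in esiGFP (blocked difference 1.71). USP18, which removes ISG15 and dampens type I signalling, was lower, with 11.9 and 8.43 FPKM in esiFLI1, 16.6 and 12.7 FPKM in esiUSP9X, and 14.0 and 12.9 FPKM in esiGFP (blocked difference -0.39). Of 14 genes of nucleic acid sensing 11 were tested, of which the blocked fit called 1 higher and 1 lower, against 20.6% and 21.6% of all genes, and the unblocked fit 0. The list's median was 0.05. The gene called higher passed the filter only through its esiFLI1 libraries. It was TLR3, an endosomal receptor for double-stranded RNA, with 2.05 and 3.45 FPKM in esiFLI1, 0.980 and 0.889 FPKM in esiUSP9X, and 0.933 and 0.969 FPKM in esiGFP.

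Many further interferon-induced genes were called higher in esiFLI1 in the blocked fit. Of 36 listed, 26 were tested, and for esiFLI1 against esiGFP the blocked fit called 16 higher and 2 lower, against 20.6% and 21.6% of all genes. The unblocked fit called 1 higher, APOL1, against 2.58% of all genes. APOL1, UBA7 and SP100 passed the filter only through their esiFLI1 libraries, and without them the blocked fit called 13 of 23 higher and the unblocked fit 0. IFI30, a lysosomal thiol reductase, had 14.2 and 5.58 FPKM in esiFLI1, 3.61 and 1.78 FPKM in esiUSP9X, and 4.11 and 0.822 FPKM in esiGFP. UBA7, the enzyme that activates ISG15, had 4.04 and 2.30 FPKM in esiFLI1, 0.804 and 0.653 FPKM in esiUSP9X, and 0.827 and 0.333 FPKM in esiGFP. Both were higher in esiFLI1 than in all other libraries, and the list's median was 0.49. PNPT1 and LAP3 were the 2 called lower, with blocked differences of -0.65 and -0.35. Of 11 antigen presentation genes 9 were tested, and the blocked fit called 5 higher and 0 lower, against 20.6% and 21.6% of all genes, and the unblocked fit 0. PSMB9, a subunit of the immunoproteasome, had 5.45 and 4.05 FPKM in esiFLI1, 1.27 and 0.453 FPKM in esiUSP9X, and 1.94 and 1.25 FPKM in esiGFP (blocked difference 1.15). In esiUSP9X against esiGFP, 0 genes of these lists were called in either fit. There the unblocked fit called 0.0247% of all genes higher and 0% lower, and the blocked fit 0.074% and 0.164%. The 0 is therefore not read as a trait of these lists.

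Many members differed between the replicate numbers in the same direction in every group. Over the 3 groups, 18 of the 39 tested members were higher in replicate 1 in every group and 15 were higher in replicate 2 in every group. The share of all genes that did so was not counted, so these counts are not read as a trait of the members. The first set had a median transcript GC content of 56.0%, and the second of 42.6%. Across the 39 members the mean difference between replicates 1 and 2 correlated with GC content at r = 0.895, a description over genes that share the same 6 libraries, and over 11011 genes with a known GC content it was 0.859. IFI16 and GBP1 were higher in replicate 2 of every group, while ISG15, IFI6 and TYK2 were higher in replicate 1. The esiFLI1 difference from esiGFP had little relation to GC content over the members, with r = 0.0787, and over all genes r was -0.11. Whether the libraries' preparation differed between the numbers was not tested.

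**Figure D5:**
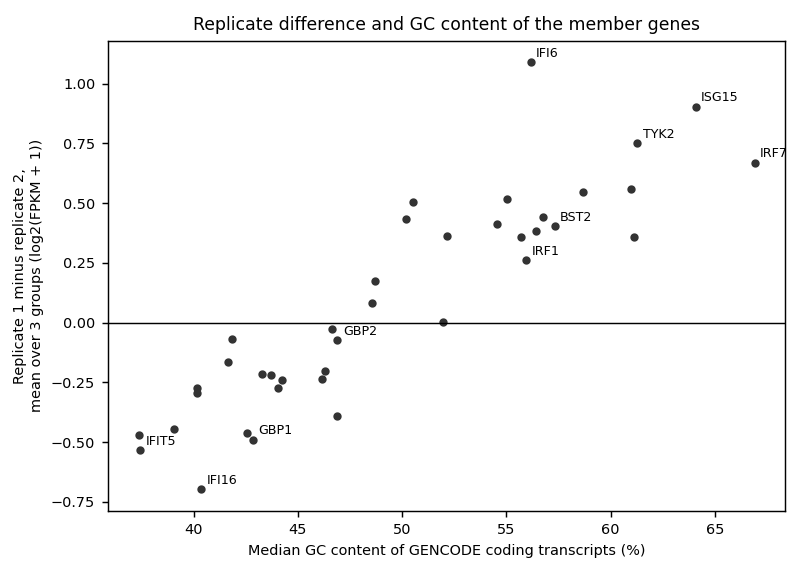
Mean difference between replicates 1 and 2 over the 3 groups, on the log2(FPKM + 1) scale, against the GC content of the coding transcript in percent, with a point for each of the 39 tested members. Members of high GC content lie above 0 and those of low GC content below it, with r = 0.895.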

How the data were processed

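The deposited table holds FPKM made by the authors, a value per gene symbol and library. Per the labels' protocols, 2 µg of total RNA was depleted of ribosomal RNA, made into stranded libraries and read as 75-nt single ends. The submitters' processing notes name TopHat, Cufflinks, Cuffdiff, hg19 and GRCh37, while annotation and strand use were not given in the sources used here. Dropping 1 stray line left 25268 genes, and 0 columns lacked a sample. Values under 0.05 FPKM, searched in bins of 0.001, showed no steps of single reads (fullest bin 5.64%), so depth is unknown and no counting interval was computed.

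Genes of at least 1 FPKM in at least 2 of 6 libraries were kept (12169). The fit of log2(FPKM + 1) used limma 3.58.1 under R 4.3.3 (eBayes with trend, all 6 libraries, two-sided, Benjamini-Hochberg over all kept genes, adjusted p under 0.05). The labels do not say that replicates were separate cultures, so the spread behind each p-value is that between these samples and may be technical. The main fit had no block (3 residual and 2.21 prior degrees of freedom). Same-numbered samples deviated together (correlations of 0.644, 0.647 and 0.589 over all genes), so the pairing was taken from the data, not the labels, and a fit with the replicate number as a block is given beside it (2 residual and 5.72 prior). Both fits were run on data simulated from the blocked model, with its replicate effect and few changed genes, so the blocked fit was favoured in advance. There the blocked fit recovered 89% of 1.5-fold and 99.8% of 2-fold changes, with 6.26% of its calls false. The unblocked fit recovered 0. The simulation cannot show which fit suits these data, and low counts from the unblocked fit do not show that genes were unchanged. GC content came from GENCODE 29 (90.5% of kept genes) and promoters from RefSeq GRCh38.p14.

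The members, the lists and the rule for named genes were chosen with earlier results of these data known. The rule took the called members of largest difference, the most abundant of each role group, and up to 4 called genes of each further list. In the end every member was named, and fewer genes of some lists than the rule set. APOL1, SP100, PNPT1 and LAP3 were named after their values were seen. Alternatives were another pseudocount, other filters, median-of-ratios and quantile scaling, the block, only the groups compared, and leaving out each library.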

Additional observations from a re-analysis of the deposited data

How the results depend on the processing

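The share of all genes called was counted only for the main fit and the same fit with the replicate block. Counts of members under the other settings are therefore not read as a trait of the members. For esiFLI1 against esiGFP, 2.58% of all genes were called higher without a block and 20.6% with it. The count of members called higher was 1 without a block and 24 with the replicate block. It was 4 with no filter, 2 with median-of-ratios scaling and 0 with only the 2 groups compared. With the replicate block it was 24 under median-of-ratios scaling, 22 under quantile normalization and 24 with a pseudocount of 0.1. The count called lower was 0 without a block and 1 in each of these blocked fits. Leaving out each library gave 0 higher in all unblocked fits. Blocked, it gave 21 and 18 without esiFLI1 replicates 1 and 2, 24 and 24 without those of esiUSP9X, and 23 and 21 without those of esiGFP, with 0 to 1 lower. The median difference of 0.60 became 0.42 with no filter. For esiUSP9X against esiGFP, 0 was called in each fit but 1, the blocked fit without esiGFP replicate 1, and leaving out each library gave 0 to 1. For esiUSP9X against esiFLI1, the count called lower was 1 without a block, 24 blocked, 3 with no filter, and 0 with a filter of 5 FPKM or with only the 2 groups compared. It was 23 blocked under median-of-ratios scaling, 22 blocked under quantile normalization, and 24 blocked with the pseudocount of 0.1. Leaving out each library gave 0 lower unblocked, and, blocked, 19 and 21 without esiUSP9X replicates 1 and 2, 21 and 18 without those of esiFLI1, and 24 and 24 without those of esiGFP. The count called higher was 0 unblocked, 1 in each of these blocked fits and 0 to 1 without each library. The median of -0.56 became -0.67 with a pseudocount of 0.1, -0.36 with no filter and -0.46 under quantile normalization. IFI6 reversed to -0.20 without esiGFP replicate 2, unblocked (limma adjusted p = 0.904, range -0.20 to 1.17 without each library), and the cause was not tested. GBP2 missed the threshold under unblocked quantile normalization (adjusted p = 0.0503), as did IRF1 in esiUSP9X against esiFLI1 with no filter (adjusted p = 0.0559). The block changed no call of a member in esiUSP9X against esiGFP. Leaving out a library leaves its group with 1, and the fit then assumes that the lone library varies like the other groups. Without read counts, low and 0 values have no detection limit.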
